A study of Homo sapiens with 24 samples.

Results

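Retinoic acid metabolism and response genes were examined in sorted human breast cancer cells. The 9 genes were taken as a list: the retinol transporter STRA6, the retinaldehyde reductase DHRS3, the retinoic acid hydroxylases CYP26A1 and CYP26B1, the binding proteins CRABP1 and CRABP2, the receptors RARA and RARB, and the response gene PLAAT4, formerly RARRES3. Each gene was read from the probe set that named its symbol alone, and 8 of the 9 had one, out of 22395 genes read in this way. CRABP1 had no such probe set and has no value here. The 8 measured genes had 1 such probe set each, 16681827 for DHRS3 and 16726081 for PLAAT4 among them.

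The study asked how the small molecule ID8 changed gene expression in Aldefluor+ and Aldefluor- breast cancer cells. It used 24 arrays in 8 groups of 3. SUM159, a triple-negative mesenchymal breast cancer line, was cultured in experiments 2, 3 and 4, and T47D, a luminal oestrogen receptor positive line, in experiments 5, 6 and 7. In each experiment cells received 5 µM ID8 or the solvent DMSO for 72 hours and were stained with Aldefluor, a dye that cells with aldehyde dehydrogenase activity convert and retain. Cells were then sorted into Aldefluor+ and Aldefluor- fractions, with the gate set against the aldehyde dehydrogenase inhibitor DEAB. The groups were thus ID8 Aldefluor+, DMSO Aldefluor+, ID8 Aldefluor- and DMSO Aldefluor- cells of SUM159, and the same of T47D. Each line was grown in its own serum-containing medium, so all groups had whatever retinoids the serum carried, which the labels do not describe.

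Retinoic acid is made from vitamin A in a chain of steps. Retinol enters cells partly through STRA6, is oxidised to retinaldehyde, and is oxidised again to retinoic acid by aldehyde dehydrogenases of the ALDH1A family, the class of activity that Aldefluor staining reads. DHRS3 runs the first step backwards by reducing retinaldehyde to retinol, and CYP26 enzymes break retinoic acid down. CRABP proteins carry retinoic acid in the cytoplasm, and CRABP2 passes it to the nuclear receptors RARA and RARB, which bind DNA with retinoid X receptors at direct repeats of a short motif. DHRS3, CYP26A1, RARB and PLAAT4 are known as genes that retinoic acid itself induces in many cell types.

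Promoter windows from RefSeq (GRCh38.p14) are shown for RARB and CYP26A1, which held such a repeat, and for DHRS3, whose signal differed between groups and whose windows held none. The windows span 250 bases before to 50 bases after an annotated start. The search covered both strands for the motif AGGTCA, the variant AGTTCA, the variant GGGTCA or the variant GGTTCA followed by another of these in the same direction, with 1, 2 or 5 bases between them. Capitals mark the whole repeat in the windows.

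RARB, chr3:25428013-25428312, plus strand: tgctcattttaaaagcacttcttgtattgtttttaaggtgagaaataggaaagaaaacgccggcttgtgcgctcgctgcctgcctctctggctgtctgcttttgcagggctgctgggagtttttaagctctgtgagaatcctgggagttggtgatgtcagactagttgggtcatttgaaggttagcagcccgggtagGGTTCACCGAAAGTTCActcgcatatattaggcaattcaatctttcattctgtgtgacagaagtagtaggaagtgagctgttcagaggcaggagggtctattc
CYP26A1, chr10:93073643-93073942, plus strand: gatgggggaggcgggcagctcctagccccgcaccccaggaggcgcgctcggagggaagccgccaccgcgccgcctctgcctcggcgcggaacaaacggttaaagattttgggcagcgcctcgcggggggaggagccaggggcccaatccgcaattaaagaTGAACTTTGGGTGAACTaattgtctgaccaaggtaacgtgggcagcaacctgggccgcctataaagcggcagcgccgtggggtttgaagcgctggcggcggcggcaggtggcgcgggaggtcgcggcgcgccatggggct
DHRS3, chr1:12618161-12618460, minus strand: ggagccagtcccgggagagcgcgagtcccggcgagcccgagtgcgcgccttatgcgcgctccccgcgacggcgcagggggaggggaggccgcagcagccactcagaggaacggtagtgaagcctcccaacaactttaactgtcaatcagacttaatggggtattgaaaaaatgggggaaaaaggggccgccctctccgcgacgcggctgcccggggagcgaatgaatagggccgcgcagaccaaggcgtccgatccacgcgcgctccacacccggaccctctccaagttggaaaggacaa

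The RARB repeat lay at -53 to -37 from the start, with 5 bases between its motifs, which alone are in capitals here.
RARB repeat, chr3:25428210-25428226: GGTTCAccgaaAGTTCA
CYP26A1 repeat, chr10:93073803-93073819, opposite strand: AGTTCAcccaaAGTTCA

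The CYP26A1 repeat lay at -90 to -74 from the start, on the strand opposite to the gene, also with 5 bases between the motifs. RARB and CYP26A1 were the 2 members with a match among the 8 of the 9 genes that had a window, which had 20 windows between them. PLAAT4 was not among the genes with a window. Over all 35116 windows, 0.0883% held the repeat with 5 bases between the motifs, 0.131% the one with 1 base, 0.0399% the one with 2 bases, and 0.259% any of these. None of the 3 DHRS3 windows held a match, which says only that these letters were not in these windows. A match is a description of the sequence and not a measured binding site.

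Signals are log2 values after robust multiarray averaging and batch adjustment by the authors. Averaged over all 24 arrays, the log2 signal was 1.32 for STRA6, 2.75 for DHRS3, 1.50 for CYP26A1, 1.29 for CYP26B1, 4.83 for CRABP2, 3.55 for RARA, 1.02 for RARB and 3.44 for PLAAT4. STRA6, CYP26A1, CYP26B1 and RARB averaged below 2, as did 49% of all genes, so these 4 sat among the dim probe sets of the array. Signals of different probe sets are not compared with each other, because each probe set has its own brightness. Levels are not compared between the lines either, because the authors' batch adjustment had left the lines with nearly the same mean for most genes, with a standard deviation over genes of 0.118 for the difference between the lines. The adjustment had also brought the experiments of a line to nearly the same mean, with a standard deviation over genes of at most 0.0226.

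Markers of the 2 lines were checked first. All 8 of the mesenchymal and basal-like markers were higher in SUM159 than in T47D, with a median log2 difference of 0.70, and all 10 of the luminal markers were lower in SUM159, with a median of -0.64. These are differences in batch-adjusted values, so their sizes are not read as the lines' difference in level. The 5 measured haematopoietic and 3 measured endothelial markers averaged below 2. Array-wide spread was narrower on the DMSO Aldefluor+ SUM159 array of experiment 4, with an interquartile range of 2.05 against 2.17 to 2.33 on the others. Nothing in the labels calls the experiments of a line separate stocks of cells. The p-values therefore measure how far differences between groups varied between experiments in culture, with the spread pooled over both lines.

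**Figure D1:**
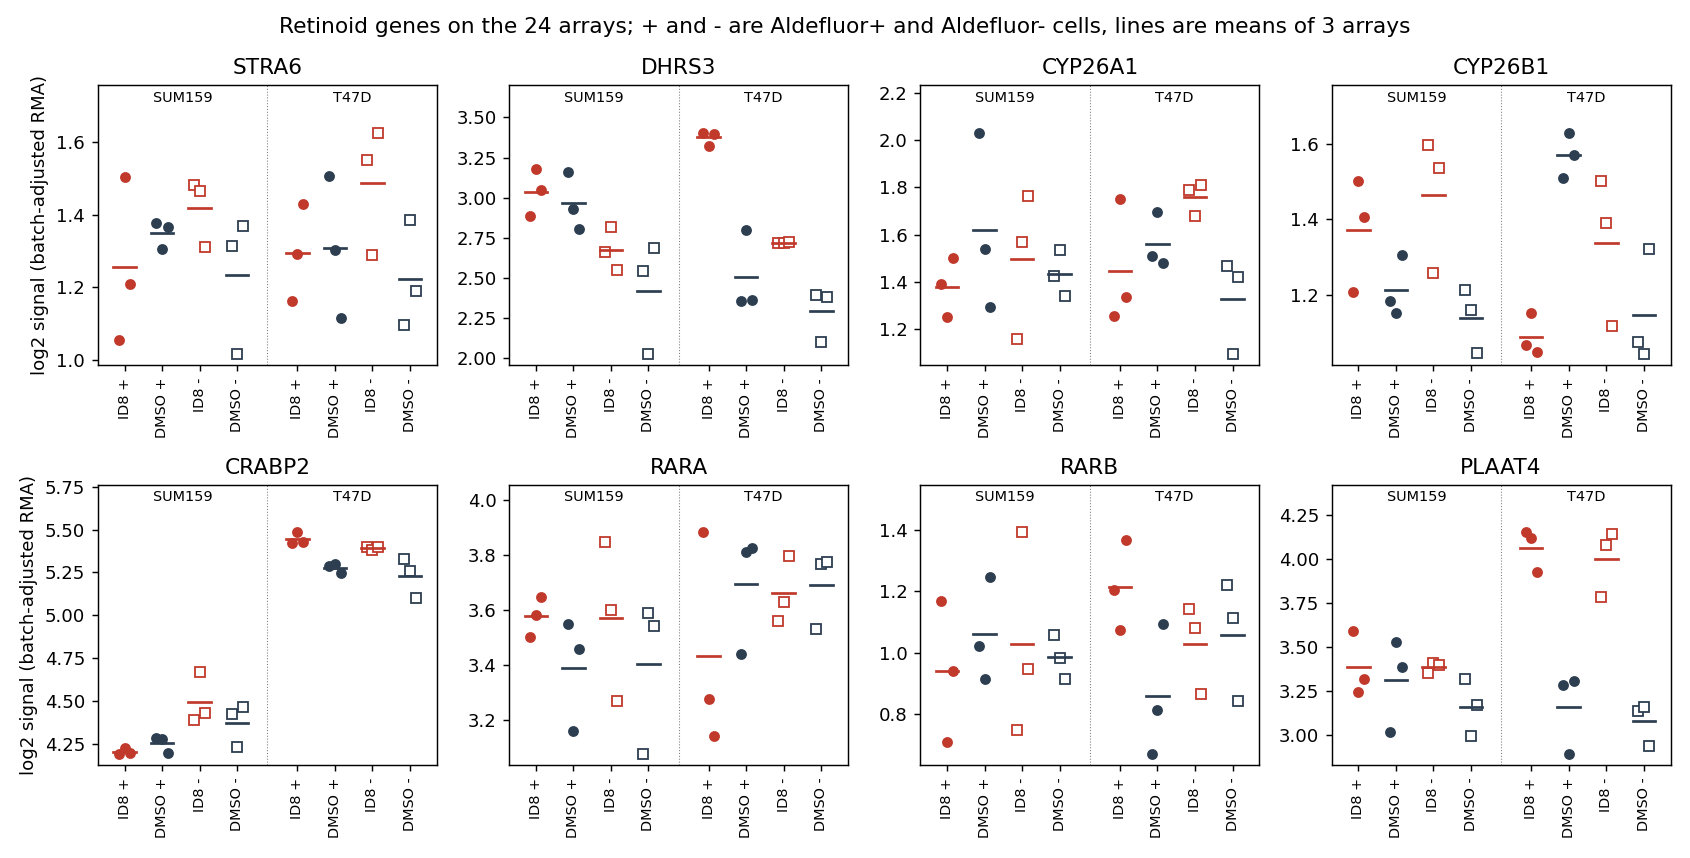
Log2 signal (batch-adjusted, vertical axis, own scale for each gene) of the 8 measured retinoid genes on each of the 24 arrays, by line, treatment and Aldefluor fraction, with a line at the mean of 3 arrays. Within T47D, PLAAT4 was at 3.78 to 4.15 on the ID8 arrays and at 2.89 to 3.31 on the DMSO arrays, and DHRS3 stood at 3.33 to 3.41 in ID8 Aldefluor+ cells, above the other T47D groups.

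DHRS3 and PLAAT4 were higher in T47D cells treated with ID8. In the fit averaged over both fractions, DHRS3 was 1.57-fold and PLAAT4 1.88-fold higher with ID8 than with DMSO, and these 2 of the 8 genes passed the test, an adjusted p below 0.05 in limma with Benjamini-Hochberg adjustment over all 22395 genes. The same test called 0.505% of all genes. The list was chosen with earlier results of these data known, so this share gives context and does not test the list. No measured gene of the 8 passed as lower. The 8 genes had a median log2 difference of 0.16, against -0.01 for all genes, and 6 of 8 were above 0. Ranked from the highest t statistic down, PLAAT4 was number 8 and DHRS3 number 52 of 22395 genes.

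In the Aldefluor+ fraction of T47D, the same 2 of the 8 genes passed, against 0.375% of all genes. In the Aldefluor- fraction none of the 8 passed at an adjusted p below 0.05 in limma, and the test called 0.0179% of all genes. At an unadjusted p below 0.05 there were 3 of the 8 genes and 1479 of all genes. The difference of the ID8 effect between the fractions of T47D was called for none of the 8 genes and for 0% of all genes in limma, with 1 of the 8 and 1328 of all genes at an unadjusted p below 0.05. An effect of ID8 in one fraction alone was therefore not shown for any of these genes.

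In SUM159 none of the 8 genes was called for ID8. As in T47D, 6 of the 8 were above 0 in the average over fractions. Their median log2 difference was 0.1, against -0.01 for all genes. In Aldefluor+ cells 4 of the 8 were above 0, with a median of 0.01, and in Aldefluor- cells all 8, with a median of 0.18. Averaged over fractions, limma called 0.688% of all genes, and 1 of the 8 and 2535 of all genes had an unadjusted p below 0.05. In the Aldefluor+ fraction it called 0.241% of all genes, and none of the 8 but 2309 of all genes had an unadjusted p below 0.05. In the Aldefluor- fraction it called 0.277%, with 1 of the 8 and 1799 of all genes at an unadjusted p below 0.05. The difference of the ID8 effect between the SUM159 fractions was called for 0.00447% of all genes and for none of the 8 in limma. None of the 8 but 1582 of all genes had an unadjusted p below 0.05 there.

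The ID8 effects of the lines were also compared directly, as SUM159 minus T47D. PLAAT4 was the 1 of the 8 genes that passed, against 0.647% of all genes, and 3 of the 8 and 2437 of all genes had an unadjusted p below 0.05. The fractions of a treatment share arrays with the treatment comparisons of the same line. These comparisons are therefore not independent, and no overlap between them is given.

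**Figure D2:**
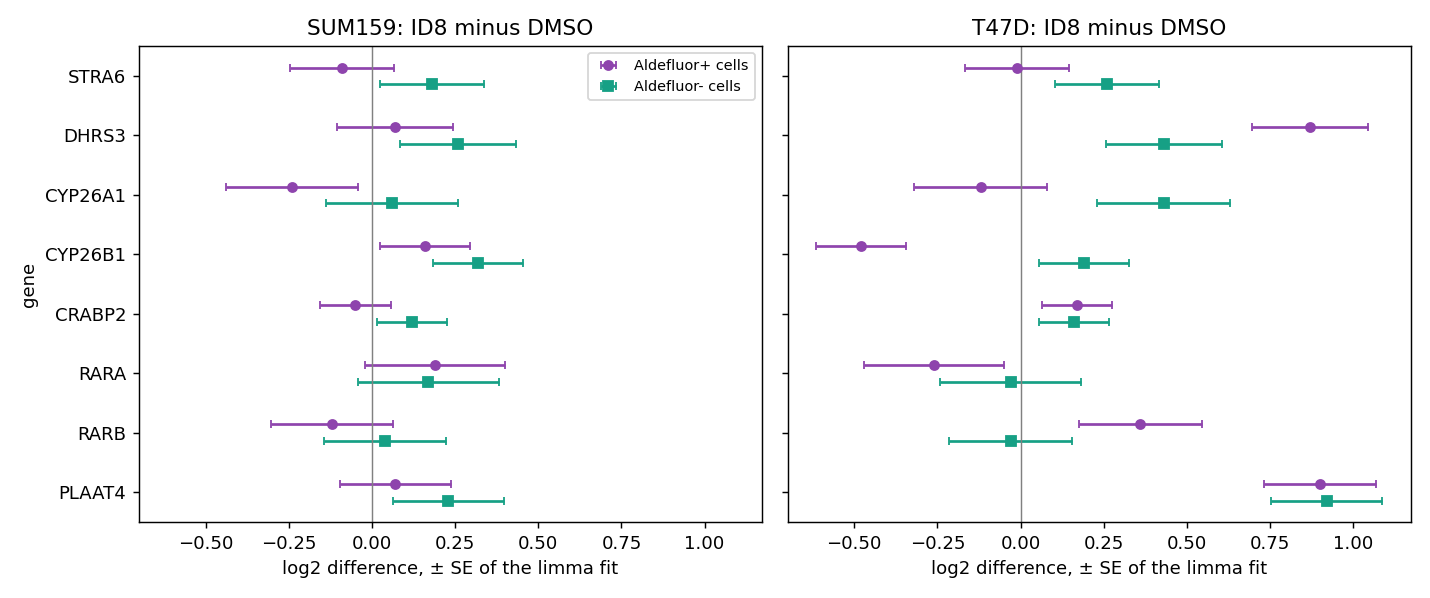
Log2 difference of ID8 minus DMSO (horizontal axis) for each gene in Aldefluor+ (circles) and Aldefluor- (squares) cells of SUM159 and T47D, with bars of 1 standard error from the limma fit. DHRS3 at 0.87 and PLAAT4 at 0.90 in Aldefluor+ T47D cells passed the test, and the SUM159 values lie between -0.24 and 0.32.

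The uptake receptor STRA6 was near the lower end of the array in every group. Its log2 signal lay between 1.02 and 1.50 on the 12 SUM159 arrays and between 1.10 and 1.63 on the 12 T47D arrays. The averaged ID8 difference was 0.05 ± 0.111 (SE) in SUM159 and 0.13 ± 0.111 in T47D, with adjusted p values of 0.937 and 0.747 in limma. ID8 and DMSO arrays overlapped in both fractions of both lines, so no treatment difference of STRA6 was detectable at this signal.

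DHRS3, the reductase that returns retinaldehyde to retinol, had log2 signals of 3.41, 3.33 and 3.39 in ID8 Aldefluor+ T47D cells of experiments 5, 6 and 7, against 2.36, 2.80 and 2.36 in DMSO Aldefluor+ cells. The groups did not overlap, and the ID8 arrays lay close together. How many of all genes had groups without overlap is not given here, so overlap is described throughout and not tested. The difference was 0.87 ± 0.174 on the log2 scale, 1.83-fold, with an adjusted p of 0.0426 in limma, and it was above 0 in 3 of 3 experiments, from 0.53 to 1.05.

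In Aldefluor- T47D cells DHRS3 read 2.72, 2.71 and 2.72 with ID8, against 2.40, 2.10 and 2.38 with DMSO. These groups did not overlap either, but the difference of 0.43 ± 0.174 did not pass, with an adjusted p of 0.727 in limma. Averaged over fractions, the T47D difference was 0.65 ± 0.123, with an adjusted p of 0.0275 and values of 0.69, 0.57 and 0.69 in experiments 5, 6 and 7. The ID8 and DMSO arrays overlapped in this average, because Aldefluor- cells with ID8 read below 1 DMSO Aldefluor+ array. The effect in Aldefluor+ minus that in Aldefluor- cells was 0.44 ± 0.247, with an adjusted p of 0.868.

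In SUM159 DHRS3 read 2.88, 3.18 and 3.05 in ID8 Aldefluor+ cells, against 3.16, 2.93 and 2.81 in DMSO Aldefluor+ cells, in experiments 2, 3 and 4. In the Aldefluor- fraction it read 2.66, 2.82 and 2.55 with ID8, against 2.54, 2.03 and 2.69 with DMSO. Treatments overlapped in both fractions. The averaged ID8 difference in SUM159 was 0.16 ± 0.123, with an adjusted p of 0.698, and the ID8 effect in SUM159 minus that in T47D was -0.48 ± 0.174, with an adjusted p of 0.29 in limma.

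DHRS3 group means were also higher in Aldefluor+ than in Aldefluor- cells, but only a comparison added later called the difference. Group means in Aldefluor+ and Aldefluor- cells were 3.04 and 2.68 in SUM159 with ID8, 2.97 and 2.42 in SUM159 with DMSO, 3.38 and 2.72 in T47D with ID8, and 2.51 and 2.29 in T47D with DMSO. The last of these rested on experiment 6: with DMSO, the T47D difference was above 0 in 1 of 3 experiments, from -0.04 to 0.70, and it was -0.03 without experiment 6. Averaged over treatments the difference was 0.45 ± 0.123 in SUM159 and 0.44 ± 0.123 in T47D, and neither line passed alone, with adjusted p values of 0.204 and 0.138 in limma. With both lines averaged, a comparison added after DHRS3 was seen to be higher in both, the difference was 0.44 ± 0.0872, 1.36-fold, with an adjusted p of 0.0279. DHRS3 was the 1 of the 8 genes called in it, against 0.603% of all genes, and once the treatments of an experiment were averaged, Aldefluor+ exceeded Aldefluor- cells in 6 of 6 experiments, by 0.31 to 0.65. As the added comparison was chosen with these values in view, its p is not independent of them. The difference between lines was 0.02 ± 0.174, with an adjusted p of 0.99 and a 95% interval of -0.35 to 0.39.

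In the separate fraction comparisons none of the 8 genes was called. Limma called 0.201% of all genes between the fractions of ID8-treated SUM159 cells, 0.0223% with DMSO, 0.219% over both treatments, 0.366% in ID8-treated T47D cells, 0.152% with DMSO and 0.875% over both treatments, and 0.478% for the difference of the fractions between lines. From 1 to 2 of the 8 genes and from 1683 to 2477 of all genes had an unadjusted p below 0.05 in each of these comparisons. For DHRS3 the difference was 0.36 with ID8 and 0.55 with DMSO in SUM159, with adjusted p values of 0.674 and 0.462. It was 0.66 with ID8 and 0.21 with DMSO in T47D, with adjusted p values of 0.17 and 0.802 in limma. In SUM159 the DHRS3 arrays of the fractions did not overlap under either treatment. In T47D the fractions did not overlap with ID8 and overlapped with DMSO.

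**Figure D3:**
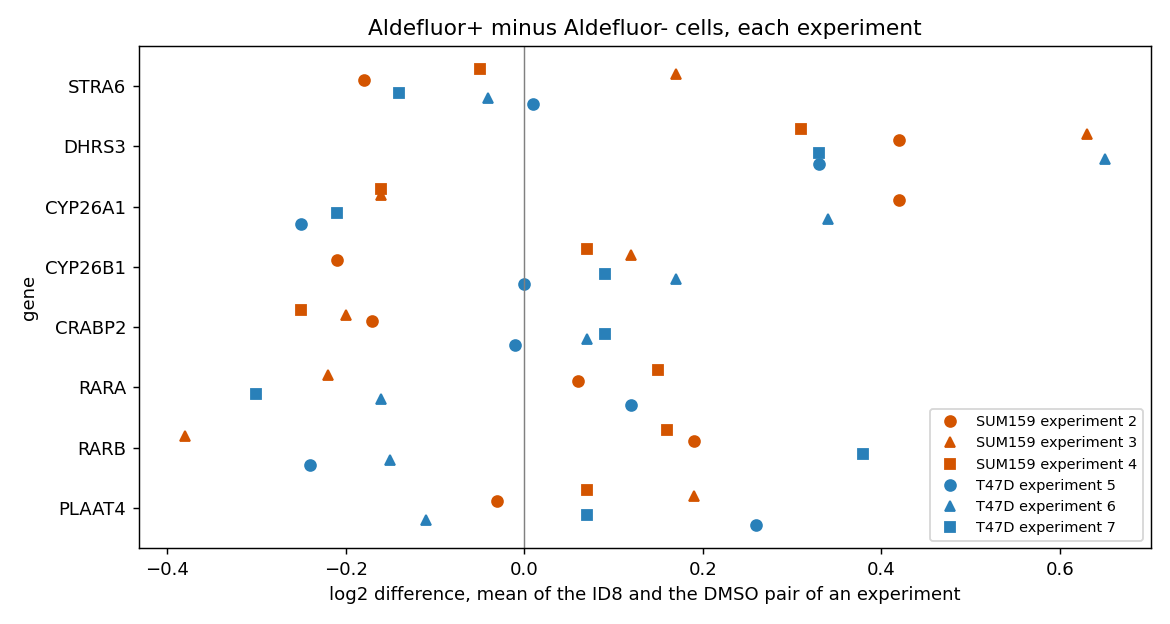
Log2 difference of Aldefluor+ minus Aldefluor- cells (horizontal axis) in each of the 6 experiments, averaged over the ID8 and DMSO pair, for the 8 measured genes. All 6 DHRS3 points lie between 0.31 and 0.65, while every other gene has points on both sides of 0.

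The retinoic acid hydroxylases CYP26A1 and CYP26B1 were dim and were not called in any comparison. CYP26A1 ranged from 1.10 to 2.03 over the 24 arrays. Its ID8 difference was 0.43 ± 0.199 in Aldefluor- T47D cells, where the groups did not overlap, with an adjusted p of 0.755 in limma. In the other 3 line and fraction pairs it lay between -0.24 and 0.06, and the groups overlapped.

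CYP26B1 read 1.07, 1.15 and 1.05 in ID8 Aldefluor+ T47D cells, against 1.51, 1.63 and 1.57 in DMSO Aldefluor+ cells. The ID8 arrays were all below the DMSO arrays. The difference was -0.48 ± 0.135, below 0 in 3 of 3 experiments, but its adjusted p was 0.169 in limma, and of the alternatives run it passed only without the experiment block, with an adjusted p of 0.0328. In Aldefluor- T47D cells CYP26B1 read 1.50, 1.39 and 1.12 with ID8, against 1.08, 1.04 and 1.32 with DMSO, and the groups overlapped. The effect in Aldefluor+ minus that in Aldefluor- cells was -0.67 ± 0.191, with an unadjusted p of 0.00294 and an adjusted p of 0.622 in limma. In SUM159 Aldefluor- cells the ID8 arrays lay above the DMSO arrays by 0.32 ± 0.135, with an adjusted p of 0.554. All of these CYP26B1 signals were below 2, and no change was called.

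CRABP2, which hands retinoic acid to its receptor, had a standard error of 0.106 for an ID8 difference in a single fraction, the smallest of the 8 genes. In T47D it read 5.42, 5.48 and 5.43 in ID8 Aldefluor+ cells, against 5.29, 5.30 and 5.25 in DMSO Aldefluor+ cells. The Aldefluor- fraction read 5.40, 5.38 and 5.40 with ID8, against 5.33, 5.26 and 5.10 with DMSO. All 6 ID8 arrays lay above all 6 DMSO arrays, yet the averaged difference was small, 0.17 ± 0.075, with an adjusted p of 0.438 in limma. In SUM159 CRABP2 read 4.19, 4.22 and 4.20 in ID8 Aldefluor+ cells, against 4.39, 4.67 and 4.43 in ID8 Aldefluor- cells. Those fractions did not overlap, with a difference of -0.29 ± 0.106 and an adjusted p of 0.487. Averaged over treatments the SUM159 fraction difference was -0.21 ± 0.075 and the T47D one 0.05 ± 0.075, and the difference between lines, -0.25 ± 0.106, did not pass, with an adjusted p of 0.462 in limma.

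The receptors RARA and RARB were not called in any comparison. RARA lay between 3.08 and 3.85 on SUM159 arrays and between 3.14 and 3.88 on T47D arrays, with averaged ID8 differences of 0.18 ± 0.149 and -0.14 ± 0.149. RARB, whose window above holds the repeat, lay between 0.67 and 1.39 on all 24 arrays. In Aldefluor+ T47D cells RARB read 1.20, 1.07 and 1.37 with ID8, against 0.67, 0.81 and 1.09 with DMSO. The groups overlapped slightly, and the difference of 0.36 ± 0.184 had an adjusted p of 0.513 in limma. Averaged over fractions the T47D difference of RARB was 0.16, with a 95% interval of -0.11 to 0.44.

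PLAAT4, a phospholipase and acyltransferase first described as a retinoid-responsive gene, had log2 signals of 4.15, 4.12 and 3.92 in ID8 Aldefluor+ T47D cells, against 3.28, 2.89 and 3.31 in DMSO Aldefluor+ cells. In the Aldefluor- fraction it read 3.78, 4.08 and 4.14 with ID8, against 3.14, 3.16 and 2.94 with DMSO. All 6 ID8 arrays lay above all 6 DMSO arrays. The difference was 0.90 ± 0.167 in Aldefluor+ cells, with an adjusted p of 0.0277, and 0.92 ± 0.167 in Aldefluor- cells, with an adjusted p of 0.104. These were nearly the same size, and their difference was -0.02 ± 0.236, with a 95% interval of -0.52 to 0.48. The unadjusted p was 5.93e-05 in Aldefluor+ and 4.65e-05 in Aldefluor- cells by limma. Averaged over fractions the difference was 0.91 ± 0.118, 1.88-fold, with an adjusted p of 0.00219 in limma, and it was 0.76, 1.07 and 0.91 in experiments 5, 6 and 7.

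In SUM159 PLAAT4 read 3.59, 3.25 and 3.32 in ID8 Aldefluor+ cells, against 3.02, 3.53 and 3.39 in DMSO Aldefluor+ cells. It read 3.35, 3.41 and 3.40 in ID8 Aldefluor- cells, against 3.32, 2.99 and 3.17 in DMSO Aldefluor- cells. The Aldefluor+ groups overlapped, and in the Aldefluor- fraction all ID8 arrays lay above the DMSO arrays. The averaged difference was 0.15 ± 0.118, with an adjusted p of 0.718. The ID8 effect in SUM159 minus that in T47D was -0.76 ± 0.167, with an adjusted p of 0.0495, close to the threshold, and 10 of 13 alternative analyses did not keep it past the threshold, with adjusted p values from 0.0058 to 0.204 in limma. PLAAT4 did not follow the fractions: its Aldefluor+ minus Aldefluor- difference averaged 0.08 ± 0.118 in SUM159 and 0.07 ± 0.118 in T47D, with adjusted p values of 0.917 and 0.895.

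Leaving out single experiments ended most of these calls, and most calls among all genes. In Aldefluor+ T47D cells the calls among all genes fell from 84 to between 1 and 4, and averaged over fractions from 113 to between 4 and 18. Without any one of experiments 5, 6 and 7, neither DHRS3 nor PLAAT4 was called in Aldefluor+ cells, with differences of 0.78 to 1.04 for DHRS3 and 0.74 to 1.05 for PLAAT4. Averaged over fractions, DHRS3 was not called without any one of these experiments, with adjusted p values of 0.262 without experiment 5, 0.172 without experiment 6 and 0.236 without experiment 7, and PLAAT4 was not called without experiment 5 (0.0548) or experiment 6 (0.103). The DHRS3 difference between fractions in both lines stayed between 0.39 and 0.48 without any one of the 6 experiments, and its adjusted p lay between 0.0655 and 0.127.

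Over the 8 groups, after the line mean was subtracted, group means ranged over 1.08 for DHRS3 and 0.98 for PLAAT4, and over 0.26 to 0.48 for the other 6 genes. Both of the wide ranges were set by T47D groups, while SUM159 group means lay between 2.42 and 3.04 for DHRS3 and between 3.16 and 3.39 for PLAAT4. The genes whose signals followed these 2 most closely over the 24 arrays were sought among 11417 genes with a mean of 2 or more. For DHRS3 they were ZBED5, with a Pearson correlation of 0.90, EPAS1, a hypoxia-inducible transcription factor, with 0.86, and ATP2C1, a Golgi calcium pump, with 0.84. DHRS3 correlations held a similar size within each line, 0.89 to 0.95 in T47D and 0.75 to 0.80 in SUM159. For PLAAT4 they were ALDH1L2, a mitochondrial enzyme of folate metabolism, with 0.82, SMIM19 with 0.80 and RBM6, an RNA-binding protein, with 0.79. In T47D and SUM159 the correlation was 0.97 and 0.23 with ALDH1L2, 0.94 and 0.21 with SMIM19, and 0.81 and 0.75 with RBM6. The arrays of a group share treatment and fraction, and each correlation is the highest of many, so these are descriptions with no test. In the averaged ID8 comparison of T47D, EPAS1 was higher by 0.63 with an adjusted p of 0.00845 and ZBED5 by 0.44 with 0.0394 in limma, while ALDH1L2, at 0.65, had an adjusted p of 0.0521. These genes were picked for following DHRS3 or PLAAT4 on the same arrays. Their p-values are therefore not independent of the DHRS3 and PLAAT4 differences and add no test of them.

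Other genes of the pathway gave few calls. Lists for retinol transport, redox enzymes, retinoic acid synthesis, breakdown, binding, receptors, coregulators and response held 96 genes with the 9 above and 87 without, of which 73 had a probe set and 32 averaged 2 or more. Of these 73, none was called for ID8 in T47D averaged over fractions in limma, with 3 of the 73 and 2430 of all genes at an unadjusted p below 0.05 and a median log2 difference of 0.02, against -0.01 for all genes. The largest differences of the response list were 0.50 for GPRC5A (adjusted p 0.245) and 0.45 for HOXB2 (0.513), after PLAAT4. For ID8 in SUM159, 1 of 73 was called, against 0.688% of all genes, with 11 of the 73 and 2535 of all 22395 genes at an unadjusted p below 0.05. CREBBP, a histone acetyltransferase and receptor coactivator, was lower by a log2 difference of -0.43 ± 0.0844, with an adjusted p of 0.0242 in limma. It read 7.11, 7.01 and 7.12 in ID8 Aldefluor+ cells against 7.68, 7.55 and 7.47 with DMSO, and 7.28, 7.08 and 7.20 in ID8 Aldefluor- cells against 7.46, 7.59 and 7.61 with DMSO. All 6 ID8 arrays lay below all 6 DMSO arrays, and the call was lost in 5 of 11 alternatives, those without experiment 2, 3 or 4 among them. TGM2, a transglutaminase known to be induced by retinoic acid, was at 0.52 with an adjusted p of 0.0573, and IGFBP6 at -0.51 with 0.0747.

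**Figure D4:**
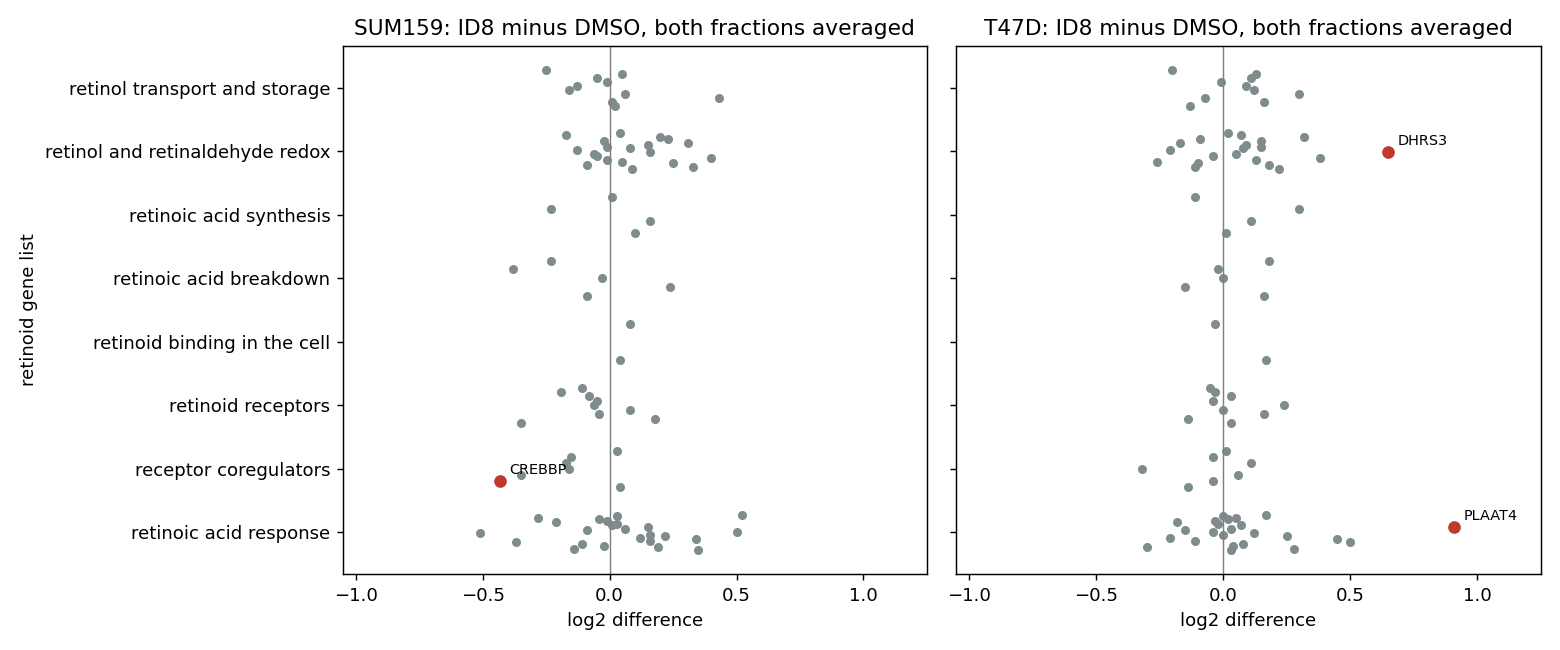
Log2 difference of ID8 minus DMSO averaged over fractions (horizontal axis) for each measured gene of 8 retinoid lists in SUM159 and T47D, with called genes in red and named. In T47D only DHRS3 at 0.65 and PLAAT4 at 0.91 were called, and in SUM159 only CREBBP at -0.43.

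Between fractions, ALDH1A1, which makes retinoic acid and is an enzyme whose activity Aldefluor reads, was the gene of these lists with the largest difference. It read 4.96 to 5.41 in ID8 Aldefluor+ and 4.84 to 5.17 in DMSO Aldefluor+ SUM159 cells, against 2.02 to 2.36 in ID8 Aldefluor- and 1.98 to 2.45 in DMSO Aldefluor- cells. The averaged difference was 2.91 ± 0.121 in SUM159, with an adjusted p of 1.27e-09, and 0.09 ± 0.121 in T47D, with an adjusted p of 0.859. The cells were sorted on this kind of activity. RBP4, the plasma carrier of retinol, was higher in Aldefluor+ T47D cells by 0.54 ± 0.0855, with an adjusted p of 0.00431 in limma, at a dim signal of 0.86 to 1.68. This call was lost without experiment 5, 6 or 7, with adjusted p values of 0.0733, 0.107 and 0.0818. The averaged DHRS3 difference between fractions was 0.45 in SUM159, where ALDH1A1 followed the sort, and 0.44 in T47D, where no ALDH1A1 difference was called. Neither DHRS3 difference was called in its line alone, with adjusted p values of 0.204 and 0.138 in limma. All 4 genes of the synthesis list were above 0 between T47D fractions and none was called. In limma, 1 of these 4 and 2477 of all genes had an unadjusted p below 0.05 there. Any relation of DHRS3 to ALDH1A1 was not tested.

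Signs of cell state were read beside these differences. No gene of the marker lists for either line, blood cells, vessel cells or proliferating cells was called for ID8 in T47D or between fractions of both lines. Measured were 8 mesenchymal and basal-like, 10 luminal, 5 haematopoietic, 3 endothelial and 6 proliferation markers. The test called 0.505% of all genes for ID8 in T47D and 0.603% between fractions. No call among so few markers therefore says little about cell state. The 6 proliferation markers had a median ID8 difference of -0.17 in T47D, and their summed log2 signal was 43.3 to 43.8 in ID8 Aldefluor+ cells against 44.5 to 45.7 in DMSO Aldefluor+ cells, and 43.2 to 44.1 in ID8 Aldefluor- cells against 43.5 to 45.1 in DMSO Aldefluor- cells. Their part in the DHRS3 and PLAAT4 differences was not tested. RNA yield per collected cell was 12.3 to 20.8 pg in ID8 Aldefluor+ T47D cells against 18.3 to 20.4 pg in DMSO Aldefluor+ cells, and 8.19 to 13.7 pg in ID8 Aldefluor- cells against 10.9 to 17.0 pg in DMSO Aldefluor- cells. Between fractions, RNA yield per cell in SUM159 was 12.2 to 15.6 pg in ID8 Aldefluor+ against 10.2 to 14.1 pg in ID8 Aldefluor- cells, and 12.7 to 13 pg in DMSO Aldefluor+ against 9.08 to 11.6 pg in DMSO Aldefluor- cells. In T47D, as the same values show, DMSO Aldefluor+ cells lay wholly above DMSO Aldefluor- cells. The summed proliferation markers of SUM159 were 43.6 to 44.4 in ID8 Aldefluor+ against 43.2 to 44.0 in ID8 Aldefluor- cells, and 44.5 to 44.9 in DMSO Aldefluor+ against 43.0 to 43.7 in DMSO Aldefluor- cells. The part of either in the DHRS3 difference between fractions was not tested. Each array was made from 10 ng of RNA from many sorted cells together. Fewer cells with a gene and less of its RNA per cell therefore cannot be told apart. With the same input for every array, the signals do not carry differences in RNA yield per cell.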

How the data were processed

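RNA of 24 sorted cell samples was hybridised to Affymetrix Human Gene ST 2.1 arrays after amplification from 10 ng, per the labels' protocols. The deposited values are log2 signals that the authors made by robust multiarray averaging (RMA), with batch effects adjusted by ComBat, per the series' design text. The submitters' processing notes name RMA and limma, with versions not given in the sources used here, and the batches given to ComBat are not given either. Of 53617 probe sets, 23871 named 1 gene symbol, 1842 several and 27904 none. For each gene the probe set naming it alone with the highest mean was kept, which gave 22395 genes.

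From these values, limma 3.58.1 in R 4.3.3 was fitted to the 24 arrays together, with a mean for each of the 8 groups and a block term for experiment nested in line, leaving 12 residual degrees of freedom. The factors given to ComBat are not known here, so these degrees of freedom may be too many, and calls near the threshold may be too firm. P-values were adjusted by Benjamini-Hochberg over 22395 genes, and an adjusted p below 0.05 was a call. The block rests on the experiment number that the labels share between the 4 arrays of an experiment. Because the authors' adjustment had already made experiment means nearly equal, a correlation of same-numbered arrays could not test the pairing. The 8 comparisons of the design text, 8 averages or differences of them and 1 added comparison were tested. Tables were handled with Python 3.11.15 and pandas 2.3.3. The fit was tested on simulated data with independent noise and no batch adjustment. That test therefore says nothing on whether the degrees of freedom are too many here. Precision is limited by the number of arrays. The members and gene lists were chosen with earlier results of these data known. Genes were named by fixed rules: all members, listed genes called anywhere and the extremes of each list, and the 3 most correlated genes for 2 members. Alternatives left out the block, single experiments, 1 array, the other line or dim genes, or changed the normalization, the prior or the choice of probe sets.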

Additional observations from a re-analysis of the deposited data

Results flagged for a closer look

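The averaged ID8 effect on PLAAT4 differed between the lines by the test of that difference, SUM159 minus T47D, at -0.76 ± 0.167 on the log2 scale (adjusted p 0.0495 in limma). The call did not hold in 10 of 13 alternatives, among them those without any one of the 6 experiments, with adjusted p values from 0.0058 to 0.204 over all 13. The effect was 0.15 in SUM159 and 0.91 in T47D, with every experiment of both lines above 0, from 0.07 to 0.30 in SUM159 and from 0.76 to 1.07 in T47D. It is the 1 value of the 8 genes for which an effect differed in size between the lines past the threshold, and the cause was not tested. Line and experiment cannot be told apart here, because each experiment used 1 line.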

How the results depend on the processing

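Called differences of the 8 genes kept their sign under every alternative run, and calls were lost more often than gained. Without the replicate block, the number of these genes called became 1 instead of 0 for ID8 in Aldefluor- T47D cells (PLAAT4), for the fractions of ID8-treated T47D cells, and for the fractions averaged over treatments in SUM159 and in T47D (DHRS3 in all 3). Calls among all genes rose from 4 to 35, 82 to 325, 49 to 250 and 196 to 700, in that order. The authors' adjustment had already made experiment means nearly equal. A fit without the block therefore counts degrees of freedom already used, and its calls may be too firm. Leaving out single experiments gave 0 to 0 called genes instead of 2 in Aldefluor+ T47D cells, 0 to 1 instead of 2 for the averaged T47D effect, 0 to 0 instead of 1 for the ID8 effect between lines, and 0 to 0 instead of 1 for the fractions of both lines. Calls among all genes fell too, from 84 to between 1 and 4 in Aldefluor+ T47D cells. They fell from 113 to between 4 and 18 for the averaged T47D effect. For the ID8 effect between lines they fell from 145 to between 18 and 85, and for the fractions of both lines from 135 to between 47 and 69. The lines' ID8 difference also had 0 called without the DMSO Aldefluor+ SUM159 array of experiment 4, after another quantile normalization, with all probe sets tested and with the mean of a gene's probe sets. In that order, 156, 152, 116 and 137 of all genes or probe sets were called there, against 145 in the main fit. With all probe sets tested, 0 were called in Aldefluor+ T47D cells and for the fractions of both lines, and 1 for the averaged T47D effect. Among all probe sets, the calls were then 55, 118 and 98, in that order. With the arrays of 1 line alone, 0 were called in Aldefluor+ T47D cells and 1 for the averaged T47D effect. Among all genes, 40 and 60 were called there. The averaged T47D difference stayed between 0.63 and 0.69 for DHRS3 and between 0.83 and 0.99 for PLAAT4, with adjusted p values from 0.00245 to 0.262 and from 4.66e-05 to 0.103. Of 1406 alternative values of genes not called, 5 passed the threshold and 88 changed sign. Losses without an experiment come with fewer arrays and residual degrees of freedom. The cause of the other losses was not tested. The 4 dim genes and RBP4 have no value where genes averaging below 2 were left out.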
